A study of Schmidtea mediterranea with 100 samples.

Results

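The Wnt ligand genes wnt11-1, wntP-2 (row name wntP-2_Smed-wnt11-5) and wnt11-6 (row name wnt11-6_Smed-wntA_Smed-wnt-4) were followed in sorted cells of the planarian flatworm Schmidtea mediterranea. They were taken by name from the count tables and make up 3 of the 7 transcripts named for a Wnt ligand among the 67386 transcripts of the bulk table. The single-cell table of 38237 transcripts lists wntP-2 and wnt11-6 but holds no row for wnt11-1, so wnt11-1 was described in bulk libraries only. The other 4 ligand transcripts, wnt1, wnt2-1, wnt11-3 and wntP-3, are given for comparison. The single-cell table holds no row for wntP-3 either. Every row of that table has a read in at least 1 cell, so wnt11-1 and wntP-3 may have had no reads there. Whether rows without reads were removed is not given in the sources used here. No genome, transcript length or sequence table was used here, so levels are not corrected for length, no gene is said to be more abundant than another, and no sequence is shown.

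All cells came from whole bodies of wild-type animals of the clonal asexual strain CIW4, which were taken apart into single cells and flow-sorted on the DNA dye Hoechst and the RNA dye pyronin Y. There was 1 bulk TruSeq library for each of 4 gates, namely PM, S/G2/M, G1 and RNA-low. The RNA-low gate also gave 96 single cells prepared by Smart-seq2. What PM stands for and which animals went into each sort are not given in the labels. Each gate has 1 library, so differences have no replicate check, and all intervals cover counting error only.

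Wnt ligands are secreted, lipid-modified glycoproteins that bind Frizzled receptors on nearby cells. In the canonical branch the signal passes through Dishevelled and stabilises beta-catenin, which acts with TCF factors in the nucleus. In planarians, Wnt and beta-catenin signalling specifies posterior identity along the body axis, and many ligand genes are transcribed in differentiated muscle and neural cells rather than in the dividing stem cells, the neoblasts. Expression of wnt11-1 and wntP-2 is known from the tail and posterior body, and wntP-2 is known to act in trunk and tail patterning. Expression of wnt11-6 is known from the brain region, where it limits the posterior extent of brain tissue and is opposed by the secreted inhibitor notum.

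The bulk libraries held 47338591 to 74968402 reads. Among low read counts the most frequent was 5 in RNA-low, 10 in G1, 21 for S/G2/M and 25 for PM, and this was used as the number of reads made from 1 starting fragment. Reads were therefore divided by these numbers before an interval was computed, and PM, with the fewest estimated fragments, gave the widest intervals. Neoblast transcripts (piwi-1, piwi-2, piwi-3 and bruli) were present in all 4 gates, with a summed level between 3399 CPM, in PM, and 10250 CPM, in S/G2/M. CPM are reads of a transcript per 1000000 reads of the scaled library, so levels are relative to the rest of the library. Fewer cells of a type and less RNA per cell cannot be told apart in bulk samples.

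**Figure D1:**
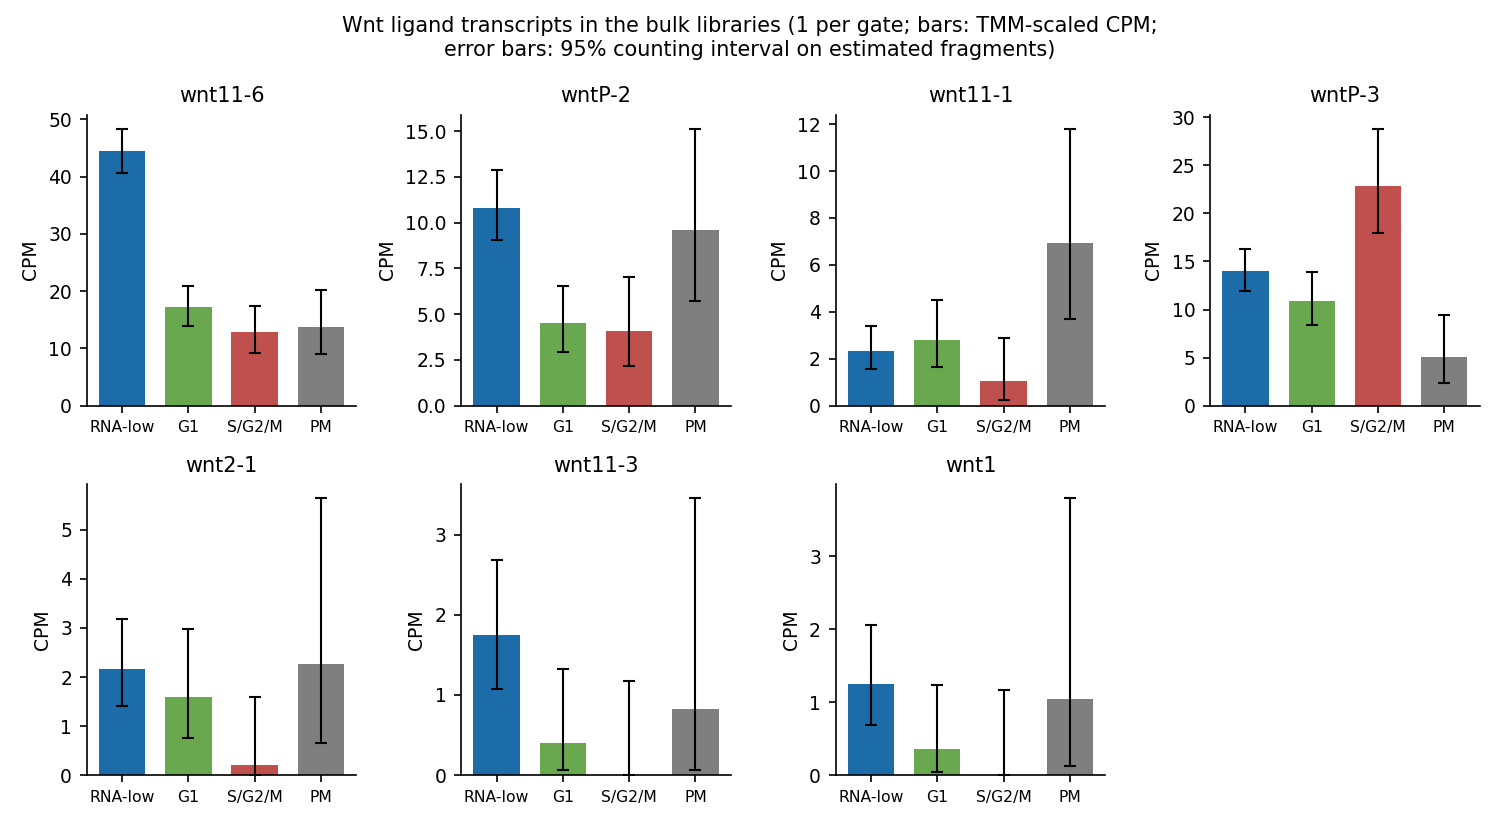
Level of each Wnt ligand transcript in the 4 bulk libraries, in CPM scaled by trimmed mean of M values, with 1 library per gate and error bars for the 95% counting interval on estimated fragments. The bar for wnt11-6 stands highest in RNA-low at 44.4 CPM, wntP-2 is high in RNA-low and PM, wnt11-1 is highest in PM at 6.91 CPM and wntP-3 is highest in S/G2/M at 22.9 CPM.

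The brain-region ligand wnt11-6 was highest in the RNA-low gate. Its level was 44.4 CPM in RNA-low (2639 reads, interval 40.7 to 48.4), 17.1 in G1 (1019 reads, 14.0 to 20.8), 12.8 in S/G2/M (849 reads, 9.20 to 17.5) and 13.7 in PM (648 reads, 8.97 to 20.1). RNA-low alone held 50.4% of the CPM summed over the 4 gates. The interval of RNA-low did not overlap that of any other gate, whereas those of G1, S/G2/M and PM overlapped each other.

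The posterior ligand wntP-2 was high in both RNA-low and PM. It stood at 10.8 CPM in RNA-low (643 reads, interval 9.03 to 12.9), 9.58 in PM (452 reads, 5.69 to 15.1), 4.49 in G1 (267 reads, 2.95 to 6.55) and 4.10 in S/G2/M (271 reads, 2.18 to 7.03). RNA-low and PM could not be separated by their counting intervals, nor could G1 and S/G2/M. Only 18.1 and 12.9 estimated fragments stand behind the values in PM and S/G2/M.

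The posterior ligand wnt11-1 was highest in PM and low elsewhere. Its level was 6.91 CPM in PM (326 reads, interval 3.69 to 11.8), 2.81 in G1 (167 reads, 1.63 to 4.52), 2.34 in RNA-low (139 reads, 1.55 to 3.38) and 1.03 in S/G2/M (68 reads, 0.230 to 2.90). PM held 52.8% of its summed CPM. The intervals of the other 3 gates overlapped, and the value in S/G2/M rests on an estimated 3.2 fragments.

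In a comparison of gates, a transcript with at least 5 CPM in either gate was called apart when its ratio was at least 2-fold, after adding 0.5 CPM to both levels, and the exact 95% interval of the CPM ratio excluded equality. A call made this way describes a pair of libraries and is not a test between conditions. Intervals below are of the CPM ratio without the added 0.5.

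The first comparison, RNA-low against G1, set cells of low RNA content beside the G1 gate. Both wnt11-6 and wntP-2 were called higher in RNA-low. The CPM of wnt11-6 was 2.59-fold higher (interval 2.09 to 3.24, log2 ratio 1.35) and that of wntP-2 was 2.41-fold higher (1.58 to 3.81, log2 ratio 1.18). Among the 11890 transcripts that passed the filter, 16.9% were called apart, that is 7.12% higher in RNA-low and 9.78% lower. Of these transcripts 96.2% had a lower log2 ratio than wnt11-6 and 94.8% a lower one than wntP-2. The member wnt11-1, under 5 CPM in both gates, was not eligible for a call and stood at a log2 ratio of -0.22, with an interval of the fold from 0.438 to 1.63. The transcript wntP-2 passed the filter through its RNA-low level alone.

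RNA-low against S/G2/M set the low-RNA cells beside replicating and dividing cells. The same pair of ligands was called higher in RNA-low, wnt11-6 by 3.46-fold (interval 2.51 to 4.88, log2 ratio 1.75) and wntP-2 by 2.64-fold (1.49 to 5.10). As against G1, wntP-2 passed the filter through RNA-low alone. Calls in that direction were common, at 22.5% of 12040 transcripts, with 18.1% called lower and 40.6% in all. These are 2710 higher and 2179 lower, against 2280 and 2767 under median-of-ratios scaling, and 3384 and 1543 under library totals. Of all transcripts kept, 88.2% had a lower log2 ratio than wnt11-6 and 82.6% a lower one than wntP-2. The member wnt11-1 was again below the filter, at a log2 ratio of 0.89 with an interval of the fold from 0.726 to 10.8, so a difference was not detectable at this depth.

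RNA-low against PM divided the 3 ligands. The CPM of wnt11-6 was 3.23-fold higher in RNA-low (interval 2.18 to 5.00, log2 ratio 1.66), where 33.3% of 13069 transcripts were called apart and 14.2% higher. The CPM of wnt11-1 was 2.96-fold lower in RNA-low (1.41 to 5.90, log2 ratio -1.38), where 19.1% were called lower, and it passed the filter through its PM level alone. Calls over all transcripts were 1852 higher and 2501 lower, against 892 and 3266 with library totals without ribosomal RNA. For wntP-2 the log2 ratio was 0.17, with an interval of the fold from 0.687 to 1.96, and it turned to -0.12 with library totals without ribosomal RNA.

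**Figure D2:**
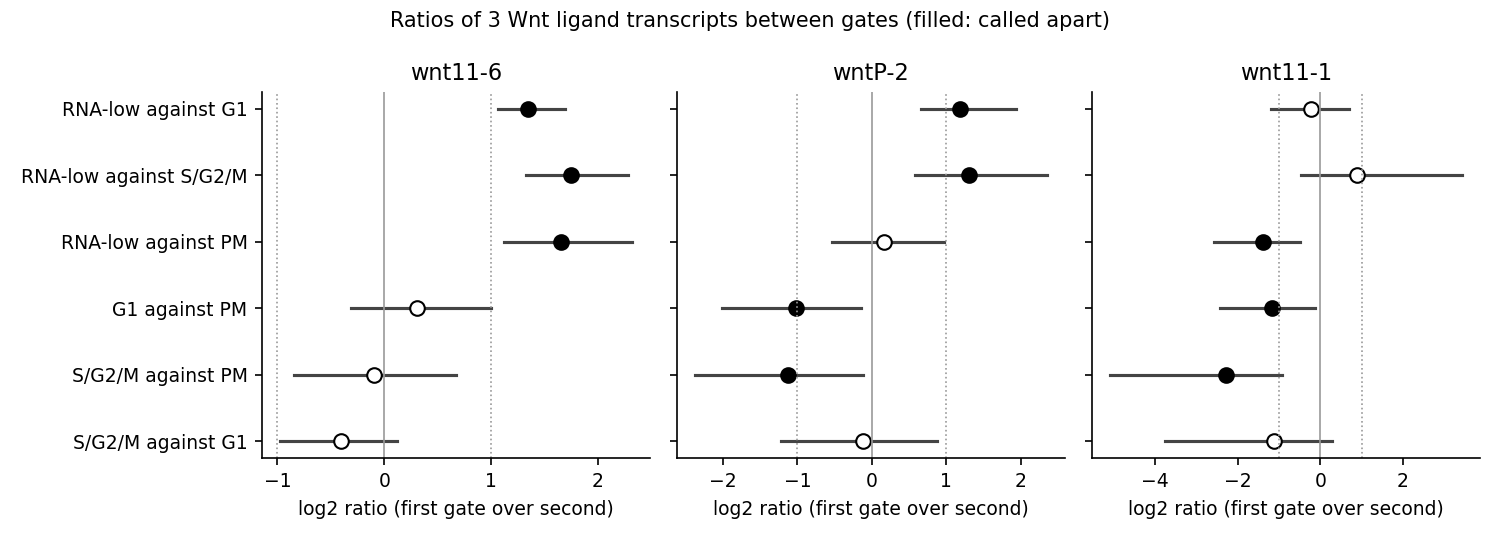
Log2 ratio of the 3 Wnt ligands in the 6 comparisons of gates, first gate over second, as points, with lines for the 95% counting interval of the CPM ratio and dotted lines at 2-fold. Filled points were called apart, as was wnt11-6 in all 3 comparisons with RNA-low and in none of the other 3.

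Against PM, wnt11-1 and wntP-2 were called lower in G1 and S/G2/M, and no difference in wnt11-6 was detectable. Both called ligands were under 5 CPM in G1 and S/G2/M and passed the filter through PM alone, where they were high. In G1 against PM, wnt11-1 was 2.46-fold lower in G1 (interval 1.10 to 5.40) and wntP-2 2.13-fold lower (1.11 to 4.02), with 21.6% of 12953 transcripts called apart, 7.22% as higher and 14.4% as lower. Over all transcripts 935 were higher and 1861 lower, against 1394 and 1687 with library totals and 530 and 2387 with totals without ribosomal RNA. With library totals both ligands fell short of a call, at log2 ratios of -1.04, where the interval reached equality, and -0.89. In S/G2/M against PM, wnt11-1 was 6.72-fold lower in S/G2/M (1.91 to 34.0) and wntP-2 2.34-fold lower (1.08 to 5.20), with 46.3% of 13002 transcripts called apart, 21.6% as higher and 24.7% as lower. Over all transcripts 2809 were higher and 3214 lower, against 1414 and 4656 with totals without ribosomal RNA. With median-of-ratios scaling the call for wntP-2 was lost, at a log2 ratio of -1.01.

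No ligand of the 3 was called in S/G2/M against G1, in which 30.8% of 11895 transcripts were called, 12.6% as higher and 18.2% as lower. Over all transcripts 1499 were higher and 2166 lower, against 2116 and 1797 under median-of-ratios scaling, 758 and 3126 under library totals and 914 and 2695 with totals without ribosomal RNA. The log2 ratio of wnt11-6 was -0.40 with an interval of the fold from 0.507 to 1.09. The log2 ratio of wntP-2 was -0.12 (interval of the fold 0.431 to 1.84) and turned to 0.03 with median-of-ratios scaling. That of wnt11-1 was -1.11 (0.0742 to 1.23), below the filter. For wnt11-6 the log2 ratio was 0.31 in G1 against PM (interval of the fold 0.804 to 2.00), and -0.09 in S/G2/M against PM (0.557 to 1.60), where median-of-ratios scaling gave 0.04.

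Markers of differentiated cells also varied over the gates. Of 5 neuron markers sought by name, COE and elav-2 were the 2 found, and their summed level was 139 CPM in RNA-low, 47.3 CPM in G1, 38.0 CPM in PM and 17.6 CPM in S/G2/M, so the gate highest in wnt11-6 was also highest in these. Titin, the 1 of 6 muscle markers found by name, stood at 12.9 CPM in PM, 4.61 in RNA-low, 2.88 in G1 and 0.514 in S/G2/M. Its value in S/G2/M is below the 0.953 CPM that 3 fragments make there. PM and RNA-low were the 2 highest gates for titin and for wntP-2, in opposite order. PM, the gate highest in wnt11-1, was also highest in the epidermal marker vim-1, at 112 CPM against 2.02 to 16.4 in the others. The summed level of the 18 prog transcripts of early epidermal progeny was instead highest in G1, at 29660 CPM, which need not hold for each of them. Their sum was 20170 CPM for PM, 6405 CPM for S/G2/M and 1860 CPM for RNA-low. The part of these cell types in the ligand levels was not tested.

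The 4 other ligands did not share 1 pattern. With trimmed mean of M values scaling, wnt1 and wnt11-3, at few reads, had the same order of gates as wntP-2. Their values in G1 and PM lay below the 0.505 and 1.59 CPM that 3 fragments make there. Their order between G1 and PM is therefore not resolved. The posterior ligand wntP-3 (also named wnt11-4) was highest in S/G2/M at 22.9 CPM (1513 reads), followed by RNA-low at 14.0 (830 reads), G1 at 10.9 (646 reads) and PM at 5.07 (239 reads). Against PM, wntP-3 was called higher in RNA-low (2.76-fold, interval 1.44 to 5.97), G1 (2.14-fold, 1.08 to 4.77) and S/G2/M (4.52-fold, 2.29 to 10.0). It was also called higher in S/G2/M than in G1 (2.11-fold, 1.49 to 2.99). In S/G2/M, where the CPM of wntP-3 was highest, wnt11-1 and wntP-2 had their lowest values, as did wnt11-6, although median-of-ratios scaling put G1 lowest for wntP-2 and PM lowest for wnt11-6.

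The remaining ligands were below 5 CPM in every gate and could not be called. The posterior pole ligand wnt1 had 74 reads in RNA-low (1.25 CPM), 49 in PM (1.04 CPM), 21 in G1 (0.353 CPM) and none (0) in S/G2/M. The ligand wnt11-3 (also named wntP-4) had 104 reads in RNA-low (1.75 CPM), 24 in G1 (0.404 CPM), 0 in S/G2/M and 39 in PM (0.827 CPM). A count of 0 in S/G2/M allows up to 0.953 CPM when taken as 3 fragments (1.17 CPM by the exact interval). The ligand wnt2-1 had 129 reads in RNA-low (2.17 CPM), 95 in G1 (1.60 CPM), 14 in S/G2/M (0.212 CPM) and 107 in PM (2.27 CPM). All 3 thus had their lowest count in S/G2/M.

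Few named genes followed the members closely over the gates. The distance was the root mean squared difference of centred log2 levels over 4 gates, among 118 named transcripts with at least 5 CPM in some gate. Among the nearest to wnt11-6 was the Sox-family gene soxB (distance 0.13, at 31.7 CPM in RNA-low, 10.1 CPM in PM, 9.89 CPM in G1 and 8.94 CPM in S/G2/M). Another was the homeobox transcript NKX2.1_smed015323 (0.27), a separate row from NKX2.1_Dth-2. Of 13991 transcripts, named or not, 21 lay nearer to wnt11-6 than soxB. The nearest to wntP-2 were the Dishevelled gene dvl-b (0.38), spondin_SmedASXL_008552 (0.39) and hnf6 (0.40), with 517 transcripts nearer than dvl-b. The nearest to wnt11-1 were PAX5-1 (0.39), the intraflagellar transport gene IFT172 (0.43) and the RNA-binding gene mex3-3 (0.47), with 424 transcripts nearer than PAX5-1.

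Beside the ligands stood 25 further transcripts of the bulk table whose names match Wnt pathway terms. Of these, 14 to 17 passed the filter in each comparison. They include FGF receptor-like ndk genes and transcripts named only spondin, so the counts are not of core Wnt components alone. RNA-low against G1 called 0 of 14 in either direction, with a median log2 ratio of 0.67 against 0.10 over all kept transcripts. RNA-low against S/G2/M called 6 of 15 higher and 0 lower, with a median of 0.60 against 0.00. RNA-low against PM called 1 of 16 higher and 2 lower, with a median of 0.47 against 0.29. In the comparisons without RNA-low, G1 against PM called 0 of 16 higher and 2 lower, S/G2/M against PM 2 of 17 higher and 4 lower, and S/G2/M against G1 1 of 15 higher and 5 lower. Over all transcripts 21.6%, 46.3% and 30.8% were called apart in these. In the comparisons with RNA-low this share was 16.9% against G1, 40.6% against S/G2/M and 33.3% against PM. Against S/G2/M, the 6 of 15 called in either direction is near that share. All 6 were higher, where the share over all transcripts was 22.5%, and this difference was not tested. Of the 6, Fzd-d, ndk-4 and spondin_SmedASXL_015093 were under 5 CPM in S/G2/M and passed the filter through RNA-low alone. For them only a higher call was possible. The gene sfrp-1 passed through S/G2/M alone and was not called.

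By role, the lipid-transferring porcupine enzymes that prepare Wnt ligands for secretion, porcnA and porcn-B, were not called in any comparison with RNA-low. The secreted inhibitor gene notum stood at 2.46 CPM in RNA-low, 2.81 in G1, 3.08 in PM and 4.22 CPM in S/G2/M, below the filter. Of the inhibitors of the sFRP class, sfrp2 was at 27.4 CPM in S/G2/M, 17.9 in RNA-low, 10.3 in G1 and 9.33 in PM, and was called higher in S/G2/M than in G1 and PM. The pattern of sfrp2 over the gates put S/G2/M first, as for wntP-3. S/G2/M was also first for porcnA (134 CPM), LGR4 (23.3 CPM), sfrp-1 (5.77 CPM) and notum. In RNA-low against S/G2/M the interval of the fold excluded equality for porcnA (0.635 to 0.797). It included equality for LGR4 (0.656 to 1.13), sfrp-1 (0.492 to 1.52) and notum (0.295 to 1.21), so S/G2/M was not separated from RNA-low for these.

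The receptor gene Fzd-d, a Frizzled, stood at 26.4 CPM in RNA-low, 19.3 in PM, 13.7 in G1 and 4.34 CPM in S/G2/M. It was called higher in RNA-low than in S/G2/M (log2 ratio 2.47), as were dvl-b (1.60) and the beta-catenin gene Bcat-1 (1.64). The FGF receptor-like genes ndk (2.62) and ndk-4 (2.16), of which ndk is known for confining brain tissue to the head, were also called higher in that comparison, as was spondin_SmedASXL_015093 (15.6 against 0.711 CPM, log2 ratio 3.73). The 0.711 CPM is below the 0.953 CPM that 3 fragments make in S/G2/M, and the interval of that fold ran from 6.36 to 154. Bcat-1 was the 1 pathway gene called higher in RNA-low than in PM (362 against 179 CPM, log2 ratio 1.02), and it fell short of a call under median-of-ratios scaling or totals without ribosomal RNA. The TCF transcription factor gene TCF-3, at 4.29 CPM in RNA-low and 0.439 to 2.44 in the other gates, was below the filter.

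**Figure D3:**
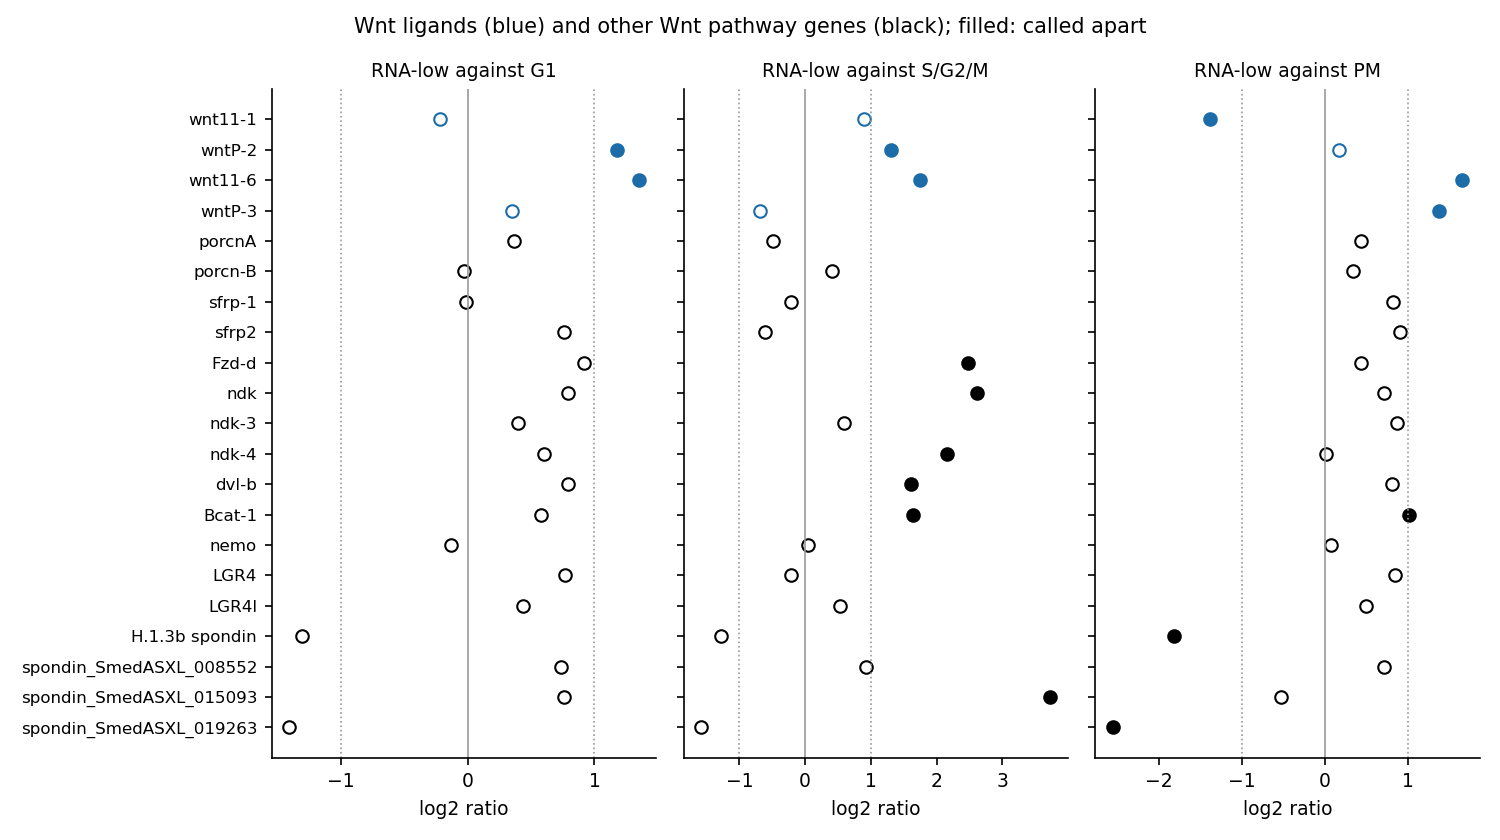
Log2 ratio of RNA-low over G1, S/G2/M and PM for the 21 Wnt ligand and pathway transcripts with at least 5 CPM in some gate, ligands in blue and others in black, with dotted lines at 2-fold. Filled points were called apart, and open ones were not called or were below 5 CPM in both gates.

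In single RNA-low cells, wnt11-6 and wntP-2 were each read in a minority of cells. Of 96 cells, 79 had at least 500 detected transcripts and were kept, with a median of 153000 reads other than ribosomal RNA. Reads of wnt11-6 were found in 14 of the 79 (17.7%, exact interval 10.0 to 27.9) and reads of wntP-2 in 7 (8.86%, 3.64 to 17.4). Neither was read in the 17 cells left out, and 0 of 17 allows a share of up to 17.6% when taken as 3 cells of 17 (19.5% by the exact interval). With 5 reads as the minimum, 12 cells had wnt11-6 and 5 had wntP-2. The cells of a gate are 1 sample, and the intervals cover counting of cells only.

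Levels varied widely among the cells that carried a ligand. Among the 14 cells with wnt11-6 the number of reads ran from 1 to 308 with a median of 37, and the highest cell by share had 2432 RPM (here, reads per 1000000 reads other than ribosomal RNA). Among the 7 cells with wntP-2 it ran from 2 to 41 with a median of 7, and the highest by share had 777 RPM. The cell with the most reads held 22.2% of all 1385 reads of wnt11-6 and 50.0% of all 82 reads of wntP-2, so a pooled level of wntP-2 rests largely on 1 cell. Pooled over the kept cells, wnt11-6 stood at 96.0 RPM and wntP-2 at 5.68, against 55.3 and 13.5 on the same scale in the RNA-low bulk library. With every kept cell weighted equally, the mean was 104 RPM for wnt11-6 and 13.1 RPM for wntP-2. Both ways of averaging put wnt11-6 above the bulk, whereas wntP-2 lay below it when reads were pooled and near it when cells were weighted equally.

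**Figure D4:**
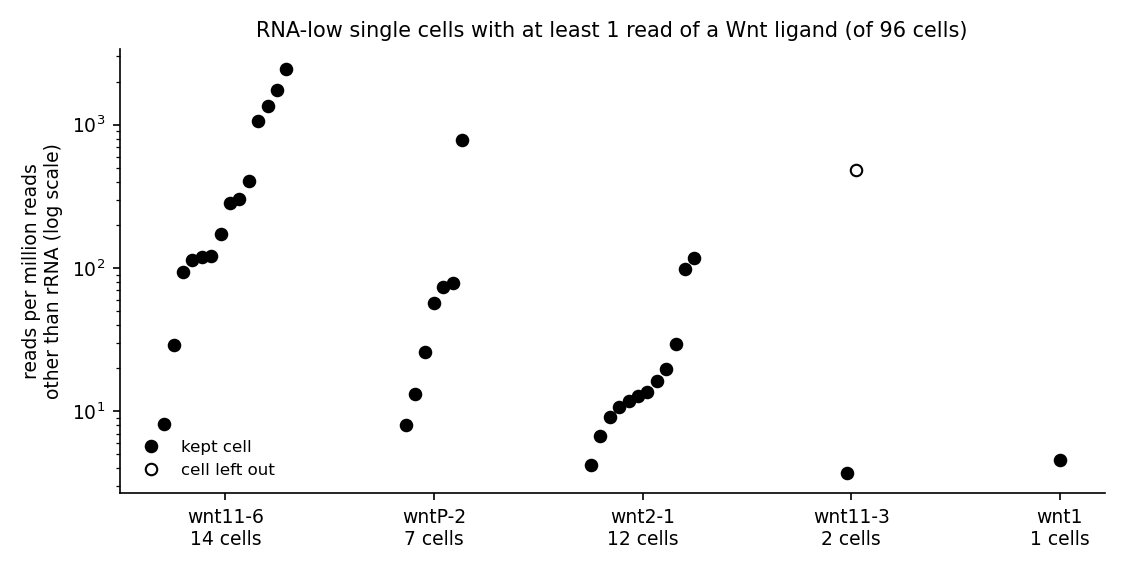
RPM, reads per 1000000 reads other than ribosomal RNA, on a log axis, in each RNA-low single cell with at least 1 read of a Wnt ligand; filled points are kept cells and the open point is a cell left out. The 14 cells with wnt11-6 span 8.19 to 2432 RPM, the 7 with wntP-2 8.07 to 777 and the 12 with wnt2-1 4.25 to 118.

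Among transcripts listed in both tables, detection of both genes was in the upper range for their bulk CPM, which was matched without regard to transcript length. Among 43 other named transcripts with 0.5 to 2 times the RNA-low CPM of wnt11-6, the median was 6 kept cells, and 2 of the 43, Ku80 and smad23, were found in more than 14. Among 17 named transcripts matched to wntP-2 in the same way the median was 4 kept cells, and 3, NKX2.1_smed015323, follistatin and yki, were found in more than 7. Over all transcripts of like level in both tables, named or not, 91.8% of 4014 were found in fewer cells than wnt11-6 and 77.8% of 4123 in fewer than wntP-2. Every transcript listed in the single-cell table has a read in at least 1 of the 96 cells. Bulk transcripts of like level without a row there were left out, among them wntP-3 (14.0 CPM in RNA-low).

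**Figure D5:**
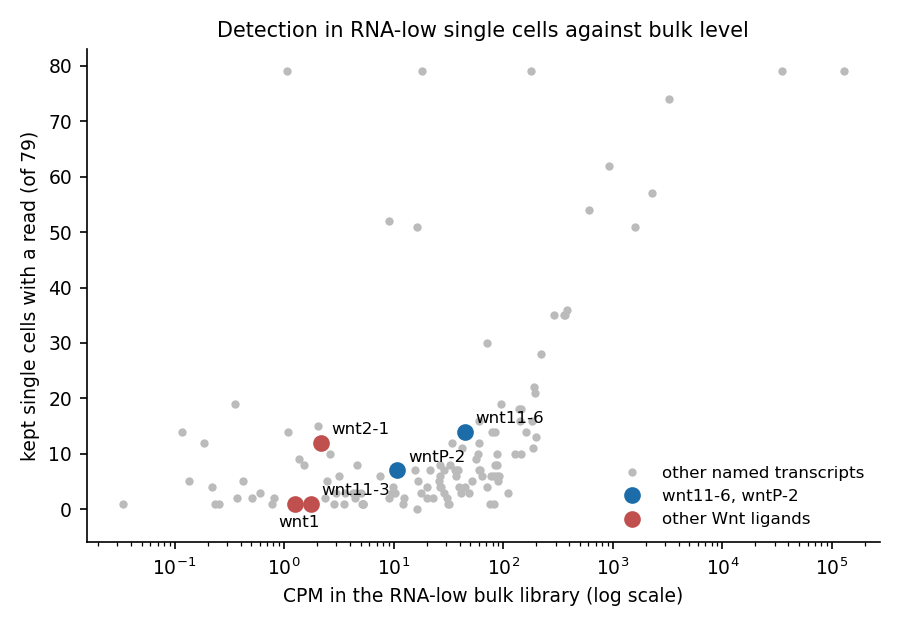
Number of the 79 kept RNA-low cells with at least 1 read against the CPM in the RNA-low bulk library (log axis) for each named transcript of both tables, with wnt11-6 and wntP-2 in blue and wnt1, wnt2-1 and wnt11-3 in red. The blue points lie at 14 and 7 cells, and wnt2-1 lies at 12 cells.

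Cells that carried a ligand also had reads of neoblast transcripts, counted from 1 read upward, as did most cells without one. All 14 cells with wnt11-6 had reads of piwi-2, the PIWI gene most widely read in these cells, and 13 of the 14 had 2 or more of the pan-neoblast genes, as did 57 of the 65 kept cells without wnt11-6. Reads of piwi-1 were found in 9 of the 14 (64.3%) and in 42 of the 65 (64.6%). For wntP-2, all 7 cells had piwi-2, 6 had 2 or more pan-neoblast genes and 4 had piwi-1, against 67, 64 and 47 of the 72 cells without it. The cell with 41 of the 82 reads of wntP-2 had 6 reads of piwi-2, 2 of piwi-1 and 31 of piwi-3. That cell also had 0 reads of bruli and 91 of titin. The other cells with wntP-2 had 53 to 678 reads of piwi-2, and the median of kept cells with piwi-2 was 308.5. The cell with the most reads of wnt11-6, 308, had 484 of piwi-2, 159 of piwi-1 and 0 of titin. Cells with wnt11-6 had a median of 2598 detected transcripts against 2004 without, and cells with wntP-2 2888 against 1987, so the cells with a ligand tended to have more transcripts read. Median reads other than ribosomal RNA were 174100 against 150900 for wnt11-6 and 150300 against 154800 for wntP-2. The part of either in the counts was not tested.

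Reads of differentiation markers were also found. The early epidermal progeny genes prog-1 or prog-2 were read in 9 of the 14 cells with wnt11-6 and 34 of the 65 without, and in 3 of the 7 cells with wntP-2 and 40 of the 72 without. Titin was read in 4 of the 14 cells with wnt11-6 and 4 of the 65 without, and in 3 of the 7 cells with wntP-2 and 5 of the 72 without. COE or elav-2 was read in 1 of the 14 and 6 of the 65, and in 1 of the 7 and 6 of the 72. The replication and mitosis genes PCNA, mcm2 or CyclinB2 were read in 2 of the 14 and 5 of the 65. Although soxB lay near wnt11-6 over the bulk gates, it was read in 0 of the 14 cells with wnt11-6 and 1 of the 65 without. The transcript NKX2.1_smed015323, also near wnt11-6 in bulk, was read in all 14 and all 65.

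Ligands and their pathway partners were read together in some cells. Both wnt11-6 and wntP-2 were read in 3 kept cells, which is 3 of the 14 with the first and 3 of the 7 with the second, and 18 kept cells had at least 1 of them. Counting all 5 ligands listed in the single-cell table, 29 of the 79 kept cells had at least 1 and 6 had 2 or more. Bcat-1 was read in 8 of the 14 cells with wnt11-6 (57.1%) and 27 of the 65 without (41.5%), and in 4 of the 7 with wntP-2 and 31 of the 72 without. Fzd-d was read in 3 of the 7 cells with wntP-2 and 5 of the 72 without, and in 1 of the 14 with wnt11-6 and 7 of the 65 without. These counts come from few cells and carry no test.

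Of the other ligands, wnt2-1 was read in 12 kept cells (15.2%, exact interval 8.10 to 25.0) but reached 5 reads in 3 of them, with 55 of its 87 reads in 1 cell. The ligand wnt1 had 2 reads in 1 kept cell. For wnt11-3 there was 1 read in 1 kept cell and 127 reads in 1 of the cells left out, a cell with 438 detected transcripts.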

How the data were processed

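The values used are raw read counts for each transcript, whole numbers without normalization in the authors' deposited bulk and single-cell tables. Per the submitters' processing notes, bcl2fastq 1.8.3 and Bowtie2 were used. How reads were counted and against which transcripts is not given in the sources used here, and reads of near-identical transcripts may have been divided between them. One bulk column is headed G0. It was read as RNA-low, since RNA-low single-cell columns start with that word and each further bulk column bears its own gate's name.

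The bulk libraries held 74968402 reads (S/G2/M), 57385665 reads (RNA-low), 54070578 reads (G1) and 47338591 reads (PM). Scaling used the trimmed mean of M values of edgeR 4.0.16 (R 4.3.3). The most frequent low read count, smoothed over 5 neighbouring counts, was taken as reads per fragment. Intervals are exact Poisson for levels, exact conditional binomial for ratios and exact Clopper-Pearson for shares of cells (scipy 1.17.1), at 95%. The call rule was tested on simulated data. Smart-seq2 has no molecular identifiers. Alternatives were DESeq2 1.42.0 median-of-ratios scaling, library totals with and without ribosomal RNA, added 0.1 or 1 CPM, intervals on reads, a filter of 1 CPM or none, and other cell thresholds. No p-value is given.

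The genes named were the 3 members, all transcripts whose names match a list of Wnt pathway terms, the 3 named transcripts nearest to each member over the gates, and cell type markers; 1 of the transcripts near wnt11-6 is not reported here. The members and lists were chosen with earlier results of these data known.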

Additional observations from a re-analysis of the deposited data

How the results depend on the processing

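The log2 ratios of the 3 members moved by less than their counting intervals under all 8 alternatives, and so did their levels under the 3 other scalings and their shares of cells under the 3 other cell rules. Of the called ratios none changed sign, and intervals on reads changed no call of a member. Calls were lost in G1 against PM for wnt11-1 (library totals, log2 ratio -1.04) and wntP-2 (library totals, -0.89, and 1 CPM added, -0.95), and in S/G2/M against PM for wntP-2 (median-of-ratios, -1.01). Scalings shifted the median of all transcripts by -0.17, 0.23 and 0.14 in RNA-low against S/G2/M, by -0.29 in RNA-low against PM (totals without ribosomal RNA), by up to -0.43 in S/G2/M against PM and -0.31 in S/G2/M against G1. With a filter of 1 CPM, transcripts called apart numbered 4734 for RNA-low against G1, 8624 against S/G2/M and 7459 against PM, 4571 for G1 against PM and 6386 for S/G2/M against G1. With no filter these were 5560, 8808, 7483, 4571 and 6386. Other pathway genes called in RNA-low against G1 became 1 higher and 2 lower with either filter, and 2 were lower against S/G2/M. None was higher than in PM (0) with median-of-ratios or totals without ribosomal RNA. In G1 against PM, 1 was lower with library totals. In S/G2/M against PM, 1 was higher with either kind of totals and 7 lower without ribosomal RNA. In S/G2/M against G1, 3 were higher with median-of-ratios and 2 with 0.1 CPM added. The cause was not tested. No paired analysis was possible because each gate has 1 bulk library. Depth limits wnt11-1 most, with about 3.2 fragments in S/G2/M.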
